A study of Daphnia magna with 3 samples.

Results

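The eggs and the carapace of the water flea Daphnia magna were compared through 6 of the 21 RNA libraries of a body part atlas, 3 from eggs and 3 from carapace, taken by the body part recorded for each library. All animals carried the genotype IL-M1-8, lived in ADaM medium with 20 mL for each adult at 20 °C and received algae every day at 100000 cells per mL, and no group had another treatment. Each of the pools numbered 3, 4 and 7 gave 1 egg and 1 carapace library, told apart by a barcode and read as nanopore cDNA. The sources used here give neither the stage of the eggs, nor the age of the animals or the number of animals in a pool, nor if each pool was a culture of its own. The p-values therefore cover the spread among these libraries alone, and that spread may be technical.

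The carapace of Daphnia is a fold of the body wall that covers the trunk. Its epidermis secretes the chitinous cuticle that is shed at each molt, and the space beneath it is the brood chamber. Parthenogenetic eggs are laid into that chamber and develop there, at first on RNA and yolk supplied by the mother, so the 2 body parts are in contact in a brooding female while differing in cell types.

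The egg libraries held 175876, 159154 and 326037 reads in pools 3, 4 and 7, and the carapace libraries held 124318, 237842 and 106131. At least 1 read fell on 15154 of the 33957 gene models, and a filter on low counts (about 59.7 CPM, or reads scaled to a library of 1000000, in at least 3 libraries) left 2931 models for testing, which took 83.2% to 90.3% of the reads of a library. The deposited table names models by contig and predictor and gives no gene names, and 0 of its identifiers matched the RefSeq gene table of assembly ASM2063170v1.1. Cuticle, muscle, yolk and germ line genes could therefore not be picked out, the labelled tissues were not checked against marker genes, and at most 2 identifiers are given in each direction.

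Reads were spread over many more models in eggs than in carapace. The 10 most counted models took 8.41%, 6.15% and 10.2% of egg reads in pools 3, 4 and 7, against 31.9%, 20.9% and 36.4% of carapace reads. The egg and carapace values did not overlap (8.26% ± 2.04 against 29.7% ± 7.95, SD, n = 3, exact permutation test, two-sided p = 0.1, the smallest that 3 against 3 allows). To reach 50% of its reads an egg library needed 513, 482 and 468 models, and a carapace library 74, 210 and 36 (two-sided exact permutation p = 0.1, n = 3). Pool 4 was the carapace library with the most even spread. The most counted model was the same in all 6 libraries, a genemark model of contig 000292F, at 0.94% to 5.71% of egg reads and 8.56% to 14.8% of carapace reads. Its difference of -2.82 ± 1.56 (log2 eggs over carapace ± SE) did not pass the test (edgeR adjusted p = 0.148), although every carapace library was above every egg library.

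How many models were seen depended on the number of reads asked for. With each library thinned to 106131 reads, a model with at least 1 read was found 8314, 8213 and 8248 times in eggs and 7740, 8949 and 6935 times in carapace, ranges that overlap (two-sided exact permutation p = 0.7, n = 3). With at least 5 reads the counts were 3745 ± 128 in eggs and 2592 ± 552 in carapace (SD, n = 3), and every egg library was above every carapace library (two-sided exact permutation p = 0.1). Without the carapace of pool 7 the difference at 1 read was -86.4 models in place of 383.5. The mean model length weighted by reads was 3107 ± 116 bases in eggs and 3238 ± 88.3 in carapace (SD, n = 3), values that overlapped (two-sided exact permutation p = 0.2).

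The libraries fell into 2 groups by body part. Across the 2931 models, log2 levels had Spearman correlations of 0.82 to 0.88 among egg libraries, 0.74 to 0.84 among carapace libraries and -0.09 to 0.25 between the body parts. The carapace of pool 4 stood nearest to the eggs, at 0.18 to 0.25, and that of pool 7 farthest, at -0.09 to 0.03. These values describe libraries over the same models, which are not independent replicates. The median SD of a model's log2 level was 0.35 among egg libraries and 0.58 among carapace libraries.

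Of the 2931 models, 1422 (48.5%) differed between eggs and carapace at an adjusted p under 0.05 (edgeR quasi-likelihood test). Eggs were higher in 665 models (22.7%) and carapace in 757 (25.8%). The within-pool difference had the direction of the fitted one in 3 of 3 pools for 660 of the 665 and 746 of the 757. It did so for 2153 of all 2931 models and 747 of the 1509 that were not called. Levels of eggs and carapace did not overlap for 646 of the 665 and 741 of the 757, against 61% of all tested models. The same 6 libraries made the calls, so these counts are descriptions and lend the calls no support. Against a null of at most a 2-fold difference 331 models were higher in eggs and 600 in carapace, 31.8% of those tested. In bulk tissue, a cell type that is rarer in a body part and a lower amount of RNA in each cell cannot be told apart.

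**Figure D1:**
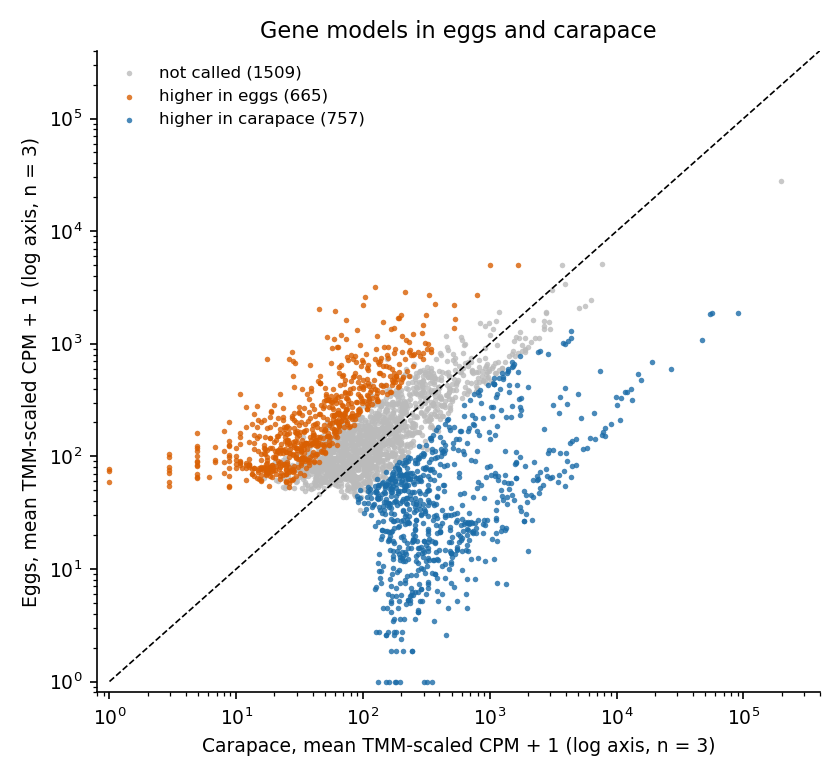
Mean level of each of the 2931 tested gene models in carapace (x axis) and in eggs (y axis), in TMM-scaled CPM plus 1 on log axes, n = 3 libraries each, with the line of equal level dashed. The 757 models higher in carapace reach far below the line, down to 0 reads in eggs, whereas the 665 models higher in eggs lie in a band closer to it.

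The balance of the 2 directions rested on how the libraries were scaled. TMM factors, which assume that most genes do not differ, were 1.41 to 1.64 for eggs and 0.54 to 0.86 for carapace. The median model then differed by 0.17 on the log2 scale. Scaled by library totals alone, the median model was 1.31 higher in eggs, a shift of 1.14, and 1519 models were higher in eggs and 498 in carapace. Eggs then held 75.3% of the calls, against 46.8% with TMM factors, 51% with RLE factors and 49.9% with DESeq2. The data give no fixed amount of RNA to settle the scale, so directions are stated relative to the TMM scale, and of its calls all 665 models higher in eggs and 498 of the 757 higher in carapace were also called by library totals.

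On the TMM scale, differences toward the carapace were larger than those toward eggs. The median log2 difference was 1.99 among models higher in eggs and -3.42 among those higher in carapace. A difference over 8-fold was fitted for 104 of the 665 (15.6%) and 417 of the 757 (55.1%), and one over 32-fold for 4 and 181. With models of 0 reads set to a bound of 3 reads over the group, the counts past 32-fold were 1 and 181. Since 3 reads stood for 10.3 CPM in carapace and 3.59 CPM in eggs, low levels could be followed further down in eggs. Among called models above 331 CPM in the higher body part, where a 32-fold fall was within reach in both, 1 of 184 passed it toward eggs and 122 of 368 toward carapace, a level set after the data were seen. The asymmetry past 8-fold was not kept under scaling by library totals, which gave 364 models toward eggs and 288 toward carapace, and past 32-fold the counts were then 26 and 34. It also depended on 1 library: without the carapace of pool 4 the counts past 8-fold were 336 and 410, and those past 32-fold 111 and 196.

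**Figure D2:**
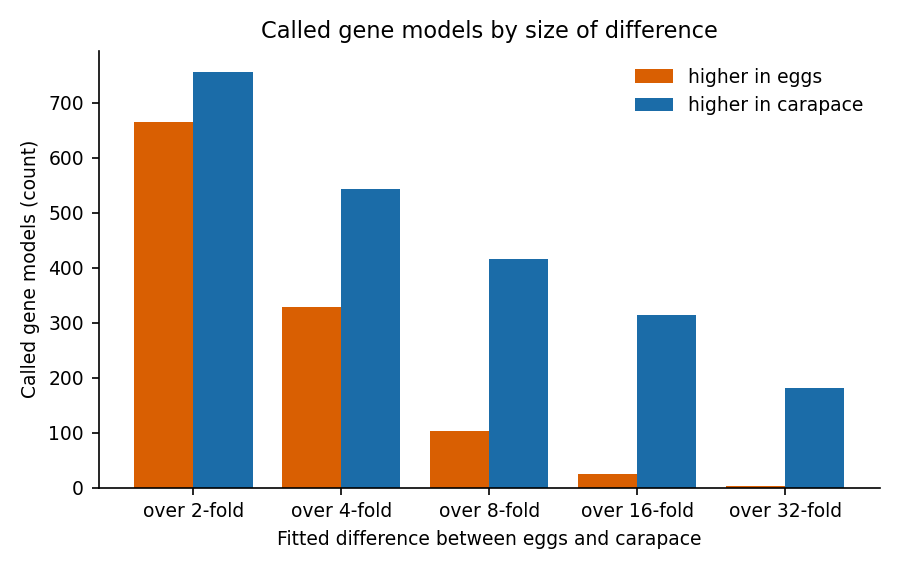
Number of called gene models (y axis) whose fitted difference between eggs and carapace exceeds the fold on the x axis, by direction, with TMM scaling. The counts fall from 665 to 4 toward eggs and from 757 to 181 toward carapace.

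Among called models, a complete absence of reads was rare in both directions. Of the 757 models higher in carapace, 9 had 0 reads among the 661067 egg reads, and they lay at least 34.6-fold to at least 94.1-fold lower in eggs (3 reads over the group, counting error only). In all, 41 had at most 3 egg reads. Of the 665 models higher in eggs, 3 had 0 reads among the 468291 carapace reads, a bound of at least 6.02-fold to at least 7.64-fold, and 39 had at most 3. A read was counted in all 6 libraries for 372 models higher in eggs and 612 higher in carapace, among those that moved alike in 3 pools. Reads of most called models were thus counted in both body parts, at unequal levels. If each read came from the body part of its barcode was not tested.

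Toward eggs, the largest fitted changes among models with at least 10 reads in every egg library belonged to 2 models without a carapace read. The first, maker-falcon_000038F-snap-gene-8.54-mRNA-2 (8204 bases), had 15, 18 and 31 egg reads in pools 3, 4 and 7, which is 62.4, 85.3 and 80.6 CPM, and 0 in each carapace library. It was at least 7.41-fold higher in eggs (edgeR adjusted p = 0.000195). On the scale of all 21 libraries its head level was 48 CPM (mean of 3 libraries, 13.7 to 95.5), from only 11 reads. That range overlapped the 61.4 CPM of eggs (51.1 to 69.0), from 64 reads, but 11 reads are too few to call the levels alike. The gut had 0 reads of the model. A model that shares its contig and name number, with 69 egg and 5 carapace reads, correlated with it at 0.97 over the 6 libraries. The values are uncertain if the pair shares reads. Another model of that number, with 21 egg and 198 carapace reads, correlated at -0.974. The coefficient thus follows the body part difference and cannot decide if reads are shared.

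The second, the augustus_masked model of contig 000071F with the gene number 1.68 (1786 bases), had 15, 11 and 40 egg reads, or 62.4, 52.1 and 104 CPM, and again 0 in each carapace library. It was at least 7.64-fold higher in eggs (edgeR adjusted p = 0.000466). Every other body part had reads of it, from 1 in gut to 16 in antenna, and of the 7 body parts only the carapace had none. Choosing the largest fitted change favours models without carapace reads, so this is a description. Both bounds are low because few reads were counted, and the fitted log2 differences of these models are not given since they depend on the prior count.

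A model with many egg reads still had few carapace reads in pools 3 and 7. The largest rise among called models with a read in all 6 libraries was at 2545, 2193 and 4832 CPM in the eggs of pools 3, 4 and 7 and at 75.8, 278 and 19.4 CPM in carapace. The egg levels stood on 612, 463 and 1858 reads and the carapace levels on 5, 48 and 1, so the size of the rise is uncertain. Eggs and carapace did not overlap, and the lowest egg library was the one of pool 4 and the highest carapace library was also of pool 4. The log2 difference was 4.50 ± 0.75 (SE, edgeR adjusted p = 0.000201). Within pools, the difference of log2 CPM with a prior count of 2 was 4.89, 2.93 and 7.33 in pools 3, 4 and 7. The prior count draws such values toward 0, so they are not on the scale of the fitted difference.

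Toward carapace, the models with the largest fitted changes had the same contig and name number. For the snap_masked model of contig 000016F with the gene number 17.87 (204 bases) the carapace libraries had 39, 34 and 13 reads in pools 3, 4 and 7, or 591, 197 and 253 CPM, and the egg libraries 0. The level was at least 82.6-fold lower in eggs (edgeR adjusted p = 1.45e-05). In the fit over 21 libraries the carapace exceeded antenna (log2 antenna over carapace -4.64, edgeR adjusted p = 0.0251) and carcass (-5.27, adjusted p = 0.00629). Hemocytes (edgeR adjusted p = 0.241), head (0.064) and gut (0.0561) did not pass the test. The model was chosen for high values in the same carapace libraries, which favours such differences, so these p-values are descriptions.

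For maker-falcon_000016F-snap-gene-17.61-mRNA-1 (2533 bases) the carapace had 14, 65 and 19 reads, or 212, 376 and 369 CPM, and the eggs 0, at least 94.1-fold lower (edgeR adjusted p = 1.08e-05). It too was higher in carapace than in antenna (log2 -4.16, edgeR adjusted p = 0.0177) and carcass (-4.03, adjusted p = 0.00671). Hemocytes (edgeR adjusted p = 0.19), head (0.0736) and gut (0.0673) did not pass the test. This model was chosen in the same way, so the same reservation holds. The 2 models correlated at 0.59 over the 6 libraries, under the 0.95 taken as a sign of shared reads. Since the coefficient follows the body part difference, it does not show that no reads are shared. Among called models with a read in all 6 libraries, the largest fall was from 1424, 1261 and 1303 CPM in carapace to 4.16, 9.47 and 5.2 CPM in eggs. These levels stood on 94, 218 and 67 carapace reads but only 1, 2 and 2 egg reads, so the size of the fall is uncertain. That model had the same order of levels in each pool, with a fitted log2 difference of -7.63 ± 0.58 (SE, edgeR adjusted p = 4.95e-06). Within pools, differences of log2 CPM with a prior count of 2 were -6.60, -5.98 and -6.37, drawn toward 0 by that prior count.

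Calls made from 2 pools were read in the pool that they did not use. With pool 3 left out, 250 models were called higher in eggs and 247 of these (98.8%) were higher in the eggs of pool 3, with a median log2 difference there of 2.52. With pool 7 left out it was 552 of 564 (97.9%), at 2.63, and with pool 4 left out 561 of 639 (87.8%), at 1.22. Pool 4 gave the smallest rise. The same models had a fitted median of 2.96 in the pools that called them, which cannot be set against 1.22. The 2.96 is a fitted difference in the libraries that chose the models. The values in unused pools are differences of log2 CPM with a prior count of 2. Models called higher in carapace were lower in the eggs of the unused pool in 637 of 643 (99.1%), 681 of 685 (99.4%) and 807 of 831 (97.1%) cases for pools 3, 4 and 7. Their medians were -3.87, -2.80 and -2.71. Over all models tested in these fits the direction of the unused pool matched in 84.9%, 81.8% and 83.9%.

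**Figure D3:**
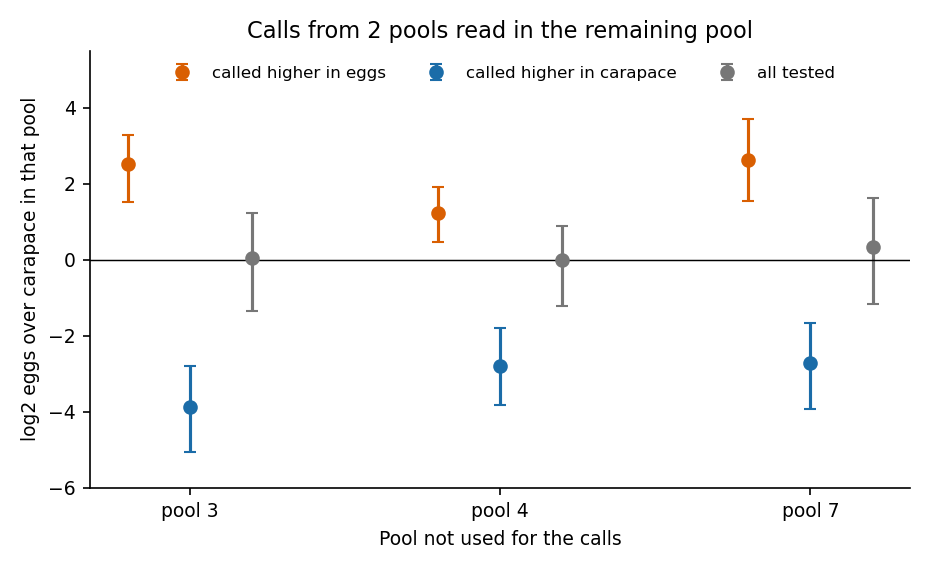
Median and quartiles (points and bars) of the log2 difference between eggs and carapace, in the pool named on the x axis, for models called from the other 2 pools and for all models tested. Models called higher in eggs lie above 0 in each pool but at 1.22 in pool 4, against 2.52 and 2.63 in pools 3 and 7.

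Models higher in eggs held 29.2%, 29.1% and 27.3% of egg reads in pools 3, 4 and 7 and 2.25%, 4.69% and 1.38% of carapace reads. Pool 4 had the highest carapace share, and 657 of the 665 models had a read there, against 549 in pool 3 and 421 in the shallowest library, pool 7. Models higher in carapace held 58.0%, 45.2% and 58.7% of carapace reads and 7.50%, 10.2% and 10.2% of egg reads. The carapace of pool 4 was thus the one nearest to eggs on both counts, and the part of egg RNA or of depth in this was not tested. These shares describe the models on the libraries that chose them.

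The other 15 libraries did not take part in the calls. Models higher in eggs held 2.35% ± 0.52 of antenna reads, 4.20% ± 5.46 of head, 7.29% ± 3.88 of hemocyte, 7.85% ± 8.29 of gut and 8.06% ± 3.22 of carcass reads (SD, n = 3). The highest antenna library was at 2.75%, below the carapace of pool 4, whereas 1 head library (10.5%, pool 3) and 1 gut library (17.3%, pool 7) stood well above the other libraries of their body part. For 623 of the 659 of these models that also passed the filter over 21 libraries (94.5%), eggs had the highest mean log2 level of the 7 body parts. Eggs were the highest for 40.7% of the models that were not called. The called models were chosen for high values in these same egg libraries, so the 94.5% is a description and not a test.

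Models higher in carapace were used widely outside eggs. They held 49.8% ± 7.36 of antenna reads, 46.3% ± 15.6 of head, 41.3% ± 17.3 of hemocyte, 34.8% ± 3.47 of carcass and 17.2% ± 7.98 of gut reads (SD, n = 3), against 9.30% ± 1.56 of egg reads. The lowest single library outside eggs was the gut of pool 4, at 12.2% of only 4161 reads. By read share no library of another body part was as low as the eggs, whose low values chose these models. The carapace had the highest mean level for 501 of 756 (66.3%), the antenna for 149, the head for 45, the carcass for 31, hemocytes for 26 and the gut for 4. Over all models tested the carapace was the highest for 23.7%. These 756 were chosen for high values in carapace and low values in eggs, so the ranks of these 2 body parts are descriptions. Eggs were the lowest for 370 (48.9%), against 14.8% of all models tested. The gut, the body part with the fewest reads, was the lowest for 375 (49.6%), against 58.9%. The median log2 level of the 756 was 5.35 in eggs and 5.34 in gut.

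**Figure D4:**
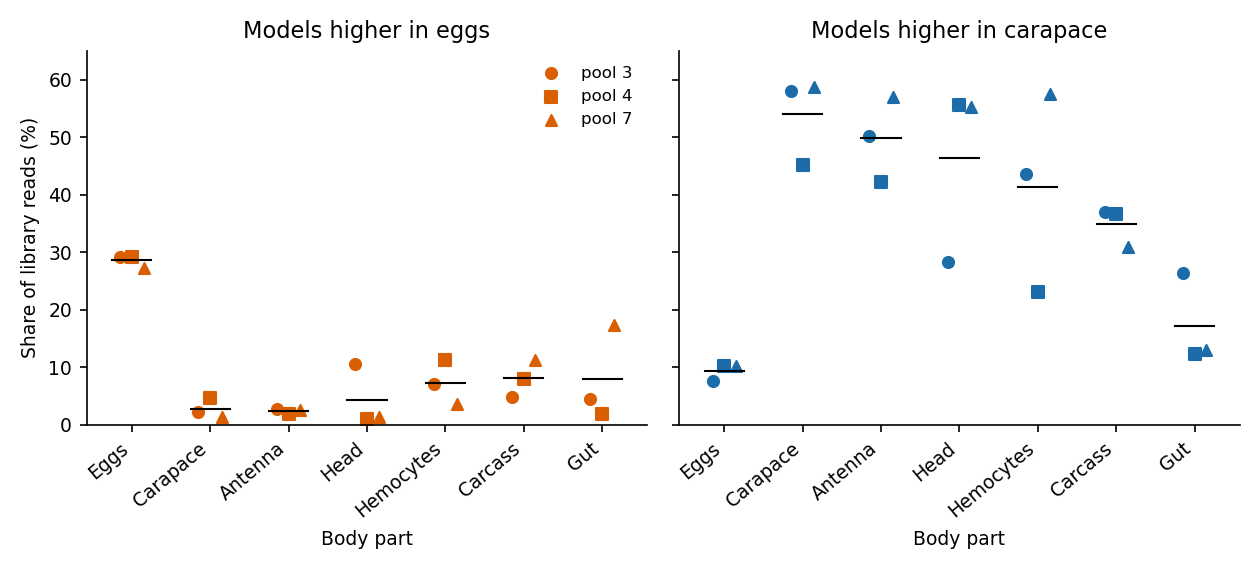
Share of each library's reads (y axis, percent) held by the models higher in eggs (left) and higher in carapace (right) in the 7 body parts (x axis), with 1 marker for each pool and a bar at the mean of 3 libraries. The right panel shows the carapace models at 42.2% to 56.9% of antenna reads and 7.5% to 10.2% of egg reads.

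The other 5 body parts were set against the carapace in the fit over 21 libraries, which called 1434 of 4035 models (35.5%) for eggs against carapace, 478 higher in eggs and 956 higher in carapace. A difference between the contrast of eggs with carapace and that of eggs with another body part is a difference between carapace and that body part. The 956 were chosen for high and the 478 for low values in the same carapace libraries, which by itself moves another body part toward a lower level in the 956 and a higher one in the 478, so the counts are descriptions and nothing is read from their distance to the shares over all models. For antenna, of the 956, 32 were lower in antenna than in carapace and 22 higher, where 0.843% of all models were lower and 1.39% higher. Of the 478, 2 were higher in antenna and 0 lower. Median log2 differences of the 956 were -3.97 for eggs over carapace and -3.36 for eggs over antenna, and those of the 478 were 2.40 and 2.41. The contrasts share the egg libraries, so these medians stand side by side and are not a test.

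For carcass, which the labels also call body, the counts were larger. Of the 956 models higher in carapace than in eggs, 222 were lower in carcass than in carapace and 8 higher, where 5.6% of all models were lower and 1.34% higher. The median of the 956 was -3.97 for eggs over carapace and -2.19 for eggs over carcass. Among the 478 models higher in eggs, 6 were higher in carcass than in carapace and 0 lower, with medians of 2.40 for eggs over carapace and 1.30 for eggs over carcass.

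For gut, 139 of the 956 were lower than in carapace and 0 higher, where 3.69% of all models were lower and 0.0496% higher, and 0 of the 478 passed in either direction, with 44 at an unadjusted p under 0.05. For head, 16 of the 956 were lower and 6 higher, where 0.397% of all models were lower and 1.02% higher, and 1 of the 478 was higher. For hemocytes 0 of the 4035 models passed in either direction (0%, edgeR), with 443 at an unadjusted p under 0.05, of which 234 were among the 956 and 63 among the 478. Median log2 differences of the 956 were -1.52 for eggs over gut, -2.81 for eggs over head and -3.17 for eggs over hemocytes.

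The most counted models of the body parts differed. By mean CPM, 29 models were among the 100 most counted of both. Of the 100 most counted in eggs, 47 were higher in eggs, 9 were higher in carapace and 44 were not called. Of the 100 most counted in carapace, 80 were higher in carapace, 0 were higher in eggs and 20 were not called, and the median log2 difference was -5.02. The calls among the most counted carapace models can be read against 25.8% over all models tested, and those among the most counted egg models against 22.7%, with the reservation that ranking by 1 body part favours models higher in it.

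Models higher in eggs were shorter. Their median length was 2156 bases (quartiles 1263 and 3831), against 2922 (1417 and 4914) for those higher in carapace and 2752 for all tested. In 4 length classes of nearly equal size, eggs were higher in 26.2%, 28.4%, 21.6% and 14.6% of models from the shortest to the longest, and carapace in 25.6%, 23.0%, 28% and 26.7%. The longest class began at 4847 bases. By gene predictor, the share higher in eggs was 19.1% for genemark, 22.6% for maker, 23.4% for augustus_masked and 32% for snap_masked models (40 of 125), and the share higher in carapace ran from 24.4% to 29.5%. No test was made over these classes.

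Models higher in carapace were gathered on some contigs. On the 32 contigs with at least 20 tested models, the share higher in carapace ran from 10.3% to 67.4% (median 23.9%), and the share higher in eggs from 9.52% to 35.4% (median 21%). The highest share was on contig 000036F, where 29 of 43 models were higher in carapace and 6 in eggs. The count of 29 was 27 under scaling by library totals and 28 or 29 without any 1 library. Fitted log2 differences of the 29 ran from -7.57, for a model with 0 egg reads, to -1.59, with a median of -4.98, and 26 were past 8-fold. Their mean carapace levels ran from 131 to 19123 CPM.

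The first number in a model's name was used to group models within a contig, since the table gives no positions. On contig 000036F all 7 tested models numbered 3 and all 7 numbered 5 were higher in carapace, with median log2 differences of -4.62 and -5.07. On contig 000018F all 11 tested models numbered 7 were, at a median of -5.03 and a largest adjusted p of 0.000951 (edgeR). These 11 held 2358, 3653 and 2504 reads in the carapace of pools 3, 4 and 7 and 101, 324 and 485 in eggs. Of 313 such groups with at least 4 tested models, 6 were higher in carapace throughout and 0 were higher in eggs throughout. Among pairs of called models in 1 group, 837 of 1376 (60.8%) had the same direction, against 50.2% of all pairs of called models. Models of 1 group may share reads where they are near-identical or overlap, which was not tested.

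In sum, the 29 models of contig 000036F held unequal shares of reads across the body parts. They took 2.66%, 2.38% and 3.91% of carapace reads and 0.0716%, 0.295% and 0.282% of egg reads in pools 3, 4 and 7. Antenna libraries exceeded every carapace library, at 7.42%, 6.12% and 6.69%. Hemocytes ran from 1.11% to 5.26%, carcass from 1.20% to 3.84%, head from 0.69% to 2.74% and gut from 0.163% to 2%. The 11 models of contig 000018F were at 1.54% to 2.36% in carapace, 1.20% to 2.22% in antenna, 0.404% to 3.82% in hemocytes, 0.0714% to 0.753% in head, 0.155% to 0.378% in carcass and 0.0481% to 0.376% in gut. The hemocytes of pool 7 were above every carapace library, and every carapace library was above all of carcass, head and gut. All these shares are sums, on which 1 model can weigh heavily. The highest mean carapace level was 19123 CPM among the 29 (median 522.7) and 15553 CPM among the 11 (median 1272). Single models were not followed in the other body parts.

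**Figure D5:**
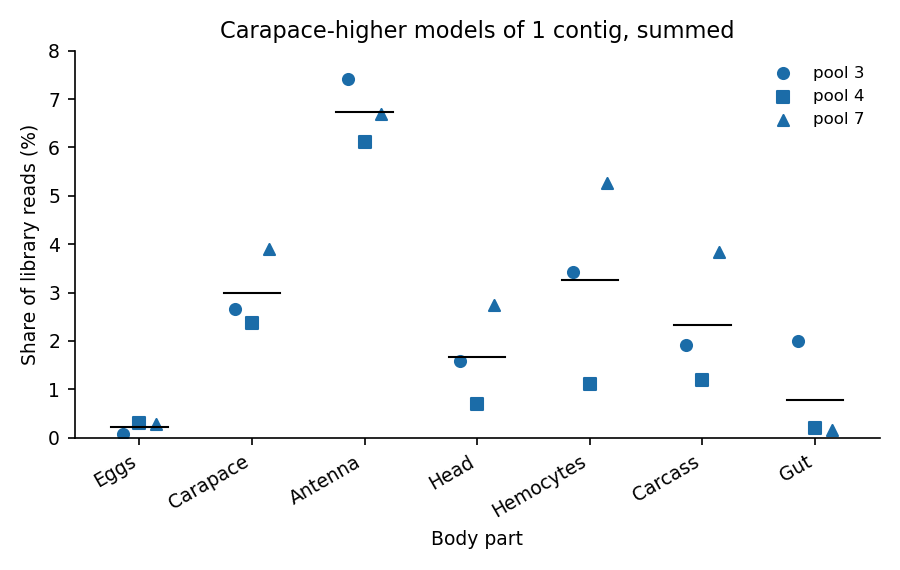
Share of each library's reads (y axis, percent) held in sum by the 29 carapace-higher models of contig 000036F, by body part (x axis), with 1 marker for each pool and a bar at the mean of 3 libraries. Egg libraries lie at 0.0716% to 0.295%, carapace at 2.38% to 3.91% and antenna at 6.12% to 7.42%.

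Not passing the test did not show that a model was equal. Of the 1509 models that were not called, 205 had an unadjusted p under 0.05, and 63 had a 95% interval of the difference that lay within 2-fold in both directions. For the other 1446 the interval reached past 2-fold in at least 1 direction, so a difference of that size could not be set aside. All these intervals are on the TMM scale. Scaling by library totals shifted the median model by 1.14 on the log2 scale, which is more than 2-fold. The count of 63 therefore holds for the TMM scale only.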

How the data were processed

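RNA was sequenced as Oxford Nanopore ligation cDNA, per the labels' protocols. The deposited table holds whole read counts and a length in bases (another value, a property of the model) for each of 33957 gene models in 21 libraries, as the authors made them; its RPKM column, 1 per-sample column, was not used. SAMtools and DESeq2 are named in the submitters' processing notes, and which aligner, build or annotation was used is not given in the sources used here.

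Counts of the 6 egg and carapace libraries were filtered with filterByExpr (minimum count 10; 31026 models left out), scaled with TMM factors and tested with the edgeR 4.0.16 quasi-likelihood test in R 4.3.3, two-sided, with Benjamini-Hochberg adjustment over all 2931 genes tested and a threshold of 0.05. The common dispersion was 0.126. SEs were the log2 difference over the root of F. The design assumed this unit and was fitted as planned; DESeq2 1.42.0 and limma 3.58.1 were alternatives. Library measures used exact permutation tests.

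Barcodes of 1 pool share its number, so libraries were paired by pool per the labels; deviations from body part means correlated at 0.01, 0.03 and 0.29 in pools 3, 4 and 7, and the block was an alternative. No replicate pair agreed within sampling noise (chi-square per degree of freedom 5.4 to 10.5). Members, lists and tests were chosen with earlier results of these data known. Genes to be named were the 2 in each direction with the largest fitted change that moved alike in 3 pools and had at least 10 reads in each library of the higher body part; the most counted model and the largest changes with reads in all 6 libraries were added after values were seen. Bounds from 3 reads cover counting error only, while intervals also carry the spread among libraries that the fit estimated. PCR copies were not told apart.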

Additional observations from a re-analysis of the deposited data

How the results depend on the processing

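Of the genes called, none was called in the other direction under any alternative listed here. With TMM factors 665 models were higher in eggs and 757 in carapace. By library totals alone the counts were 1519 and 498, with no filter 1049 and 1807 of 15154 models, with a minimum count of 30 they were 347 and 304 of 1110, and against a 2-fold difference 331 and 600. RLE and TMMwsp factors, DESeq2, limma voom, thinning to the smallest library, the fit over 21 libraries and leaving out the most counted model kept both counts within 1.5 times. With the pool as a replicate block there were 566 and 739, of which 540 and 724 were also called without it, and the block changed no call of a named model. Without 1 library eggs were higher in 500 to 761 and carapace in 649 to 739 models, and the number of models detected at a common depth differed by -86.37 to 920.8, turning below 0 without the carapace of pool 7. The cause was not tested. The 4 named models kept their calls in the 17 alternatives that tested them and were left out by the minimum count of 30. The read share of the 10 most counted models and the weighted length kept their direction. Depth limits falls in carapace to about 10.3 CPM.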

Other observations

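Models under the count filter held 15.1% to 16.8% of egg reads and 9.68% to 15.4% of carapace reads. Of the 12223 such models with a read in the 6 libraries, 445 had a read in 3 of 3 egg libraries and none in carapace, and 327 had a read in 3 of 3 carapace libraries and none in eggs. A median of 8 reads stood behind a model in both sets, and the most counted had 55 and 50 reads, so that each value rests on few reads and none was tested. Of the 445, 421 had a read in another body part, and of the 327, 325 did. Median lengths were 1282 and 1255 bases. Another 1774 of these models had a read in all 6 libraries.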
